A study of Mus musculus with 8 samples.

Results

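Desmosomes are the junctions that anchor the keratin filaments of one epithelial cell to those of the next. The genes of 10 of their components were taken by symbol from the deposited count table, namely the cadherins *Dsg2* and *Dsc2*, the plakin *Dsp*, the armadillo genes *Jup*, *Pkp1*, *Pkp2*, *Pkp3* and *Pkp4*, the membrane gene *Perp* and the plakin *Evpl*. All 10 symbols were found among the 37310 gene rows, each in a single row, and 9 of them were among the 13028 genes that passed the filter on low counts and were tested. The exception was *Dsc2*, which had no counts in any library. A gene is named as called, or as passing, where its adjusted p in edgeR (Benjamini-Hochberg, all tested genes) was under 0.05 and its log2 fold change lay beyond 0.5 in either direction.

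In a desmosome, desmogleins and desmocollins span the membrane and bind their partners on the neighbouring cell, and their tails hold plakoglobin (*Jup*) and the plakophilins, which in turn hold desmoplakin (*Dsp*), the protein that grips the keratins. Simple epithelia such as the mammary luminal layer rely mainly on desmoglein-2 and desmocollin-2, whereas the other desmogleins and desmocollins belong mostly to stratified epithelia. Desmosomes are remodelled when epithelial cells acquire mesenchymal traits, a change that TGF-β can drive in cultured mammary cells.

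The RNA came from NMuMG, a mouse mammary gland cell line grown with serum and insulin, and every group had 2 libraries, which the study calls biological replicates. Control cells and cells with the *Lnc-Nr6a1* gene, a long noncoding RNA gene, knocked out were either untreated or given 10 ng/ml TGF-β1 for 2 h. According to the study's methods, the knockout was made with CRISPR-Cas9 guides upstream and downstream of the transcription start. By the same methods, the cells were grown from individually sorted cells. How many clones stand behind the libraries was not given in the sources used here, so an effect of the deletion and a property of a clone cannot be told apart. Total counts were 7871090 and 7800602 in untreated control cells, 11210495 and 9895118 in treated control cells, 4297832 and 7181737 in untreated libraries labelled knockout, and 12761749 and 13574397 in treated ones.

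The targeted gene, listed as *Gm13507*, was checked first. It had 3 and 14 counts in untreated control cells and 25 and 35 in treated control cells. Untreated libraries labelled knockout had 11 and 7 counts of it, with none in either treated library labelled knockout. Set against a floor of 3 counts per library, the latter were at least 12.4-fold below the mean of treated control cells. The treated libraries were thus separated by the targeted gene and the untreated ones were not, which is why the groups are called libraries labelled knockout throughout, and every direction between genotypes below rests on those labels. Other genes did separate the untreated libraries by label, among them *Dsg2*, which had counts in all 4 control libraries and none in the 4 libraries labelled knockout.

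The epithelial label was compared with marker genes. The 8 epithelial markers summed to between 5906 and 10950 CPM (counts-per-million unit, scaled for library composition) in a library, with *Krt18* the most abundant per length, but *Cldn7* and *Esrp1* had no counts in any library and *Epcam* had 2 counts in 1 library. Fibroblast markers summed to at most 4.84 CPM, leukocyte markers to at most 5.58 CPM, endothelial markers to at most 0.846 CPM and keratinocyte markers to at most 7.02 CPM. The 7 myoepithelial or basal markers summed to at most 42.2 CPM, nearly all of it from *Krt14*, which was at between 2.42 and 5.18 CPM in the 4 untreated libraries and between 23.0 and 41.8 CPM in the 4 treated ones. The other 6 of these markers had at most 9 counts in a library.

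Among the cadherins, *Dsg2* was the gene whose counts separated the genotype labels. *Dsg2* (ENSMUSG00000044393.9, chromosome 18, 20716575 to 20763022 of NCBIM37, plus strand) encodes desmoglein-2. It had 76 and 87 counts in untreated control cells, 74 and 102 in treated control cells and 0 in all 4 libraries labelled knockout. In CPM these were 9.16 and 10.6 in untreated control cells and 6.93 and 10.8 in treated control cells. All 4 control libraries were above all 4 libraries labelled knockout, and the ranges of untreated and treated control cells overlapped.

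The mean of *Dsg2* in control cells was measured against a floor of 3 counts per library in the libraries labelled knockout. It was higher by at least 15.0-fold without treatment (edgeR, adjusted p = 0.00464) and at least 36.2-fold with TGF-β1 (edgeR, adjusted p = 0.00109). These lower bounds rest on the depth of the libraries labelled knockout and so are not compared with each other, and such floors cover counting error only, whereas the edgeR intervals given below also take in the spread of replicates. Fewer cells with the transcript and less transcript per cell cannot be told apart in bulk RNA. The exons of *Dsg2* share 330 bases, 3.99% of their length, with *Gm16090* on the opposite strand, a gene with no counts in any library.

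The remaining desmosomal cadherins gave little signal. Of the 9 genes of the cluster on chromosome 18 (20119431 to 20763022), 3 desmocollins and 6 desmogleins, 7 had no counts in any library, which over the 74593020 counts of all libraries allows up to 0.0402 CPM without scaling. *Dsc2* (ENSMUSG00000024331.5), the desmocollin of simple epithelia, was among these. *Dsg3* had 3 counts in an untreated control library and 2 in each treated library labelled knockout. *Dsg2* was therefore the only desmosomal cadherin tested.

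Around *Dsg2*, counts were also lower under the knockout label for *Ttr*, the nearest tested gene. No difference between genotypes was called for *B4galt6* and *Cdh2*, which had more counts. The genes named here were chosen by position after the values of *Dsg2* were seen. *Ttr*, 60729 bases after *Dsg2*, had 12 and 7 counts in untreated control cells, 11 and 22 in treated control cells, 0 and 0 in untreated libraries labelled knockout, and 4 and 1 in treated ones. It was called lower between the treated genotypes (log2 fold change −2.96, edgeR adjusted p = 0.0473) and, although the fitted log2 fold change was −6.42, not between the untreated ones (adjusted p = 0.133). *B4galt6*, 80078 bases after *Dsg2*, had 298 and 339 counts in untreated control cells, 313 and 263 in treated control cells, 167 and 279 in untreated libraries labelled knockout, and 435 and 417 in treated ones. Its log2 fold change between genotypes was −0.07 without treatment (edgeR adjusted p = 0.889) and 0.26 with it (adjusted p = 0.290). *Cdh2*, which encodes N-cadherin and is the nearest tested gene before *Dsg2* at 3748820 bases, had at least 455 counts in every library and log2 fold changes of 0.04 (edgeR adjusted p = 0.927) and 0.0028 (adjusted p = 0.992).

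Desmoplakin, the link to the keratins, was measured deeply in every library. *Dsp* (ENSMUSG00000054889.3, chromosome 13, 38243197 to 38290446 of NCBIM37, plus strand) was at 310 and 366 CPM in untreated control cells, 215 and 288 CPM in treated control cells, 544 and 496 CPM in untreated libraries labelled knockout, and 531 and 563 CPM in treated ones. The 4 libraries labelled knockout were all above the 4 control libraries, and treated control cells were below untreated control cells. The log2 fold change between genotypes was 0.62 (SE 0.17, 95% interval 0.24 to 0.99) without treatment, which did not pass with edgeR's adjusted p of 0.113, and 1.12 (SE 0.17, 0.74 to 1.50) with TGF-β1, which passed (adjusted p = 0.00444). Between treatments it was −0.43 in control cells (SE 0.17, edgeR adjusted p = 0.138) and 0.07 under the knockout label (SE 0.17, adjusted p = 0.839), and neither passed. Its exons share 360 bases with *Gm10129* on the opposite strand, which had at most 1 count in a library.

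Plakoglobin is shared by desmosomes and adherens junctions. *Jup* (ENSMUSG00000001552.8, chromosome 11, 100230272 to 100259077 of NCBIM37, minus strand) was at 267 and 247 CPM in untreated control cells, 268 and 256 CPM in treated control cells, 326 and 326 CPM in untreated libraries labelled knockout, and 583 and 656 CPM in treated ones. Control libraries lay together whatever the treatment, the untreated libraries labelled knockout lay above them, and the treated ones lay above all others. *Jup* rose by 0.92 on the log2 scale with TGF-β1 in the libraries labelled knockout (SE 0.13, edgeR adjusted p = 0.00395) and had a log2 fold change of 0.03 in control cells (SE 0.13, 95% interval −0.26 to 0.31, adjusted p = 0.921). Between genotypes the log2 fold change was 0.35 (SE 0.13, edgeR adjusted p = 0.244) without treatment and 1.24 (SE 0.13, adjusted p = 0.00101) with it.

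The difference between the 2 TGF-β1 responses of *Jup* was itself tested as the interaction of genotype and treatment. It was 0.90 on the log2 scale (SE 0.18, 95% interval 0.49 to 1.31), with an unadjusted p of 0.000691 and an adjusted p of 0.409 in edgeR. No gene of the 13028 tested (0%), and so none of the desmosome genes, passed the interaction test in edgeR or in limma-voom, while 1134 genes (8.70%) were at an unadjusted p under 0.05 in edgeR. The interaction of *Dsg2* could not be estimated, as it had no counts under the knockout label, which leaves 8 members. DESeq2 called 30 genes, *Jup* among them (adjusted p = 0.0278). With no filter on low counts, *Jup* also passed in edgeR (0.97, adjusted p = 0.00838), as did 1.03% of all genes. For *Dsp* the interaction was 0.50 (SE 0.24, adjusted p = 0.594 in edgeR), and for *Pkp1* it was 0.47 (SE 0.39, adjusted p = 0.776).

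**Figure D1:**
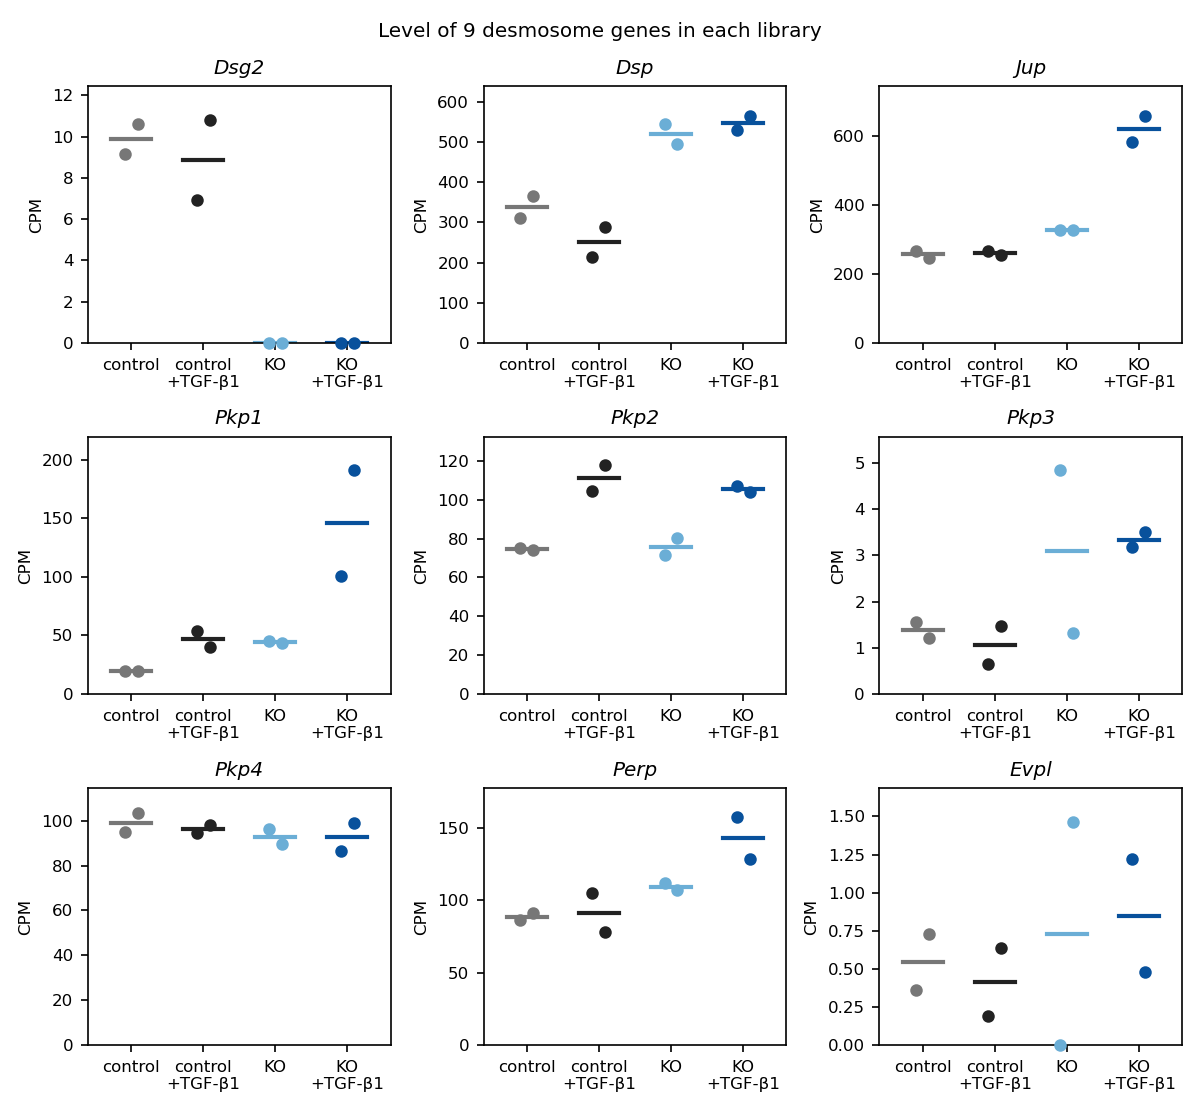
Level in CPM (vertical axis from 0) of 9 desmosome genes in each of the 8 libraries, by group (horizontal axis, KO for libraries labelled knockout), with a point for each library and a line at the mean of the 2. *Dsg2* is at 0 in all 4 libraries labelled knockout, *Dsp* lies between 496 and 563 CPM there and between 215 and 366 CPM in control libraries, and *Jup* is at 583 and 656 CPM in the treated libraries labelled knockout.

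Plakophilins cluster the cadherins and desmoplakin at the plaque, and 3 of the 4 were counted deeply. *Pkp1* (ENSMUSG00000026413.6, chromosome 1, 137767972 to 137815784 of NCBIM37, minus strand), a plakophilin best known from stratified epithelia, was at 19.4 and 19.9 CPM in untreated control cells, 53.4 and 39.9 CPM in treated control cells, 45.4 and 43.4 CPM in untreated libraries labelled knockout, and 100 and 191 CPM in treated ones. Treated libraries were above untreated ones under each label, and libraries labelled knockout were above control libraries within each treatment. The treated libraries labelled knockout also stood furthest apart from each other.

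*Pkp1* was called in 3 of the 4 comparisons of single groups. With TGF-β1 it rose by 1.25 on the log2 scale in control cells (SE 0.29, edgeR adjusted p = 0.0293) and by 1.71 in the libraries labelled knockout (SE 0.28, adjusted p = 0.00794). Between the treated genotypes it was higher by 1.64 in the libraries labelled knockout (SE 0.27, edgeR adjusted p = 0.00668). This difference was 1.12 without replicate 2 of the treated libraries labelled knockout and 2.04 without replicate 1, and passed in both cases, but it did not pass in a fit of only the 4 treated libraries (adjusted p = 0.0531). The TGF-β1 call in control cells held in 9 of 15 settings. Between the untreated genotypes the log2 fold change was 1.17 (SE 0.29, 95% interval 0.52 to 1.83), with an adjusted p of 0.0888 in edgeR and 0.00439 in DESeq2. Its call thus depended on the tool, and within edgeR also on the filter and the libraries fitted.

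*Pkp2* (ENSMUSG00000041957.8, chromosome 16, 16213411 to 16272805 of NCBIM37, plus strand), the plakophilin of simple epithelia and heart, was at 75.3 and 74.4 CPM in untreated control cells, 104 and 118 CPM in treated control cells, 71.5 and 80.3 CPM in untreated libraries labelled knockout, and 107 and 104 CPM in treated ones. Treated libraries were above untreated ones under each label, and the genotypes overlapped within each treatment. The TGF-β1 difference was 0.57 on the log2 scale in control cells (SE 0.14, edgeR adjusted p = 0.0366), which passed, and 0.47 in the libraries labelled knockout (SE 0.14, adjusted p = 0.0807), which did not. The call in control cells held in only 6 of 15 settings, with adjusted p from 0.0207 to 0.210, and was lost with the replicate number as a block (0.0573). The difference of the 2 was −0.10 (95% interval −0.54 to 0.35, adjusted p = 0.931 in edgeR). Between genotypes the log2 fold change of *Pkp2* was 0.02 without treatment (95% interval −0.30 to 0.34) and −0.08 with it (−0.39 to 0.24).

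*Pkp4* (ENSMUSG00000026991.11, chromosome 2, 58998907 to 59193265 of NCBIM37, plus strand), a relative of the plakophilins also found at adherens junctions, stayed between 86.7 and 103 CPM in the 8 libraries, and its groups overlapped in all 4 comparisons. Its 95% intervals ran from −0.41 to 0.22 between the untreated genotypes and from −0.37 to 0.26 between the treated ones, on the log2 scale. *Pkp3* (ENSMUSG00000054065.5, chromosome 7, 148264117 to 148276409 of NCBIM37, plus strand), a plakophilin widespread in epithelia, had 13 and 10 counts in untreated control cells, 7 and 14 in treated control cells, 22 and 10 in untreated libraries labelled knockout, and 39 and 44 in treated ones. The treated genotypes did not overlap in CPM and the untreated ones did. The log2 fold change between the treated genotypes, 1.65 (SE 0.64, 95% interval 0.22 to 3.07), did not pass (adjusted p = 0.111 in edgeR), and with no filter on low counts it did (1.68, adjusted p = 0.0244).

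The makeup of the plakophilin transcripts was computed from levels per length, that is CPM per kb of merged exons. *Pkp1* made up 11.0% and 10.9% of the 4 plakophilins in untreated control cells, 22.7% and 16.7% in treated control cells, 22.3% and 21.8% in untreated libraries labelled knockout, and 35.7% and 50.1% in treated ones. *Pkp4* made up 47.6% and 49.9% in untreated control cells and 27.1% and 23.0% in the treated libraries labelled knockout. The largest share thus belonged to *Pkp4* in untreated control cells and, in replicate 2 of the treated libraries labelled knockout, to *Pkp1*, while *Pkp1* and *Pkp2* were at 35.7% and 35.6% in replicate 1. *Pkp3* stayed at or below 3.30% in every library. Which of *Pkp2* and *Pkp4* stood higher in the untreated groups, and which of *Pkp1* and *Pkp2* in the treated libraries labelled knockout, depends on the length used, as given with the order of all members.

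**Figure D2:**
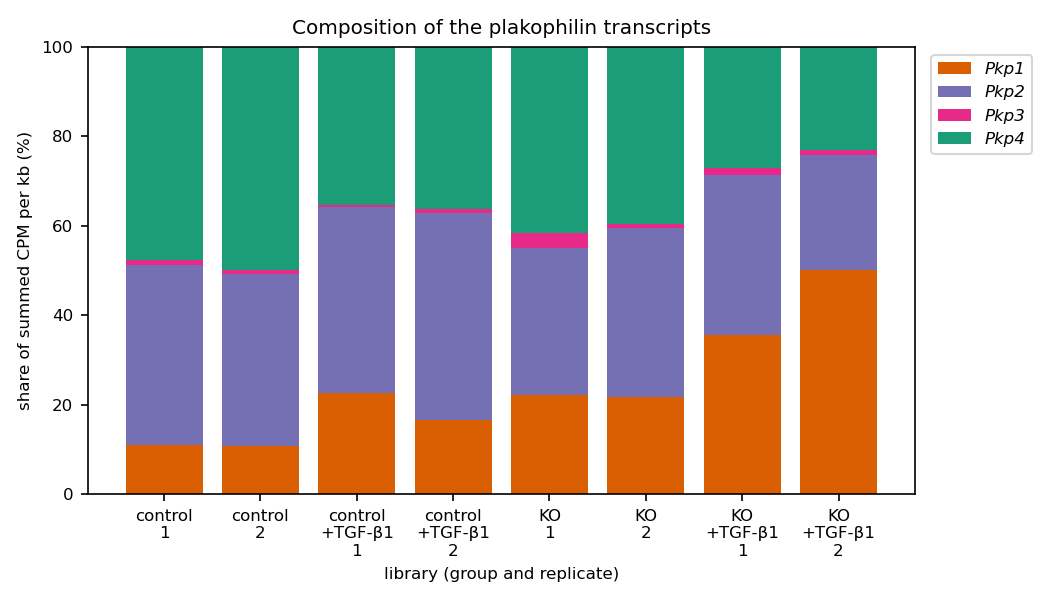
Share of each plakophilin gene in the summed level per length of the 4 (CPM per kb of merged exons, vertical axis in percent) in each library (horizontal axis, group and replicate, KO for libraries labelled knockout). The *Pkp1* segment runs from 10.9% in an untreated control library to 50.1% in a treated library labelled knockout.

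Perp is a membrane protein needed for desmosome assembly in stratified epithelia and was first described as a target of p53. *Perp* (ENSMUSG00000019851.7, chromosome 10, 18564877 to 18576879 of NCBIM37, plus strand) was at 86.1 and 91.2 CPM in untreated control cells, 105 and 77.8 CPM in treated control cells, 112 and 107 CPM in untreated libraries labelled knockout, and 157 and 128 CPM in treated ones. All 4 libraries labelled knockout were above all 4 control libraries, the closest pair being 105 and 107 CPM. Between the treated genotypes *Perp* was higher by 0.65 on the log2 scale in the libraries labelled knockout (SE 0.18, edgeR adjusted p = 0.0372). Between the untreated ones the log2 fold change was 0.30 (SE 0.18, adjusted p = 0.476), and with TGF-β1 it was 0.39 in the libraries labelled knockout (SE 0.18, adjusted p = 0.231) and 0.04 in control cells (SE 0.18, adjusted p = 0.906). The call between the treated genotypes did not hold in a fit of only those 4 libraries (adjusted p = 0.132). Leaving out replicate 1 or 2 in turn gave an adjusted p of 0.0663 or 0.0666 for untreated control cells, 0.0713 or 0.0712 for the untreated libraries labelled knockout and 0.167 or 0.0669 for the treated ones, and leaving out replicate 2 of treated control cells gave 0.149, while without replicate 1 of treated control cells the call held (edgeR).

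*Evpl* (ENSMUSG00000034282.3, chromosome 11, 116081873 to 116099391 of NCBIM37, minus strand) encodes envoplakin, a plakin of the cornified envelope that binds desmosomes in stratified cells. It had 3 and 6 counts in untreated control cells, 2 and 6 in treated control cells, 0 and 11 in untreated libraries labelled knockout, and 15 and 6 in treated ones. Groups overlapped in all 4 comparisons, and no difference was detectable at this depth.

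Across the members, levels per length fell into tiers. In untreated control cells the order was *Perp* (46.6 ± 1.88 CPM per kb, SD, n = 2), *Jup* (39.9 ± 2.24), *Dsp* (35.1 ± 4.13), *Pkp4* (17.4 ± 1.05), *Pkp2* (14.0 ± 0.123), *Pkp1* (3.91 ± 0.0668), *Dsg2* (1.20 ± 0.124), *Pkp3* (0.385 ± 0.0679) and *Evpl* (0.0856 ± 0.0410). Neighbours in this order did not overlap between libraries. In treated control cells *Perp* (48.0 ± 10.0) and *Jup* (40.7 ± 1.35) overlapped, and in the untreated libraries labelled knockout *Perp* (57.6 ± 1.80) and *Dsp* (54.0 ± 3.53) did.

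In the treated libraries labelled knockout the order was *Jup* (96.3 ± 8.01 CPM per kb, SD, n = 2), *Perp* (75.2 ± 10.8), *Dsp* (56.8 ± 2.40), *Pkp1* (29.0 ± 12.7), *Pkp2* (19.7 ± 0.373) and *Pkp4* (16.3 ± 1.55), with *Pkp3* at 0.922 ± 0.0621 and *Evpl* at 0.133 ± 0.0825. With the longest transcript as the length in place of the merged exons, *Jup* came first in every group, at 80.2 CPM per kb in untreated control cells, because its merged exons span 6436 bases and its longest transcript 3205. *Pkp2* then stood above *Pkp4* in every group, above *Dsp* in treated control cells and above *Pkp1* in the treated libraries labelled knockout. Under either length, *Dsg2* in control cells lay below *Pkp1* and above *Pkp3*. The level per length of *Dsg2* was 0.0341 ± 0.000474 of that of *Dsp* in untreated control cells and 0.0406 ± 0.00425 in treated control cells (SD, n = 2), and that of *Jup* was 1.15 ± 0.199 and 1.60 ± 0.381 of it, with the merged exons as the length.

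Counted together between the untreated genotypes, 1 of the 9 tested members was called, *Dsg2*, which was lower, against 1.83% of all genes tested (1.03% higher and 0.798% lower). The libraries did not overlap for 4 members in the direction of higher levels in the libraries labelled knockout (*Dsp*, *Jup*, *Pkp1*, *Perp*), against 26.8% of all genes, and for 1 in the direction of lower levels (*Dsg2*), against 25.2%. The median log2 fold change of the 9 was 0.35, beside 0.02 for all genes tested. *Dsp* and *Pkp1* were also called by DESeq2, with no filter on low counts and in a fit of only the 4 untreated libraries, and *Dsp* was called without either treated control library (adjusted p = 0.0463 and 0.0471) and *Pkp1* without either treated library labelled knockout (adjusted p = 0.0227 and 0.0248), all in edgeR unless named otherwise.

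Between the treated genotypes, 5 of the 9 were called, against 15.0% of all genes tested. *Dsp*, *Jup*, *Pkp1* and *Perp* were higher in the libraries labelled knockout (8.47% of all genes were called higher) and *Dsg2* was lower (6.57%). The libraries did not overlap for 5 members with higher levels, the 4 called ones and *Pkp3*, against 28.5% of all genes, and for *Dsg2* with lower levels, against 27.4%. The median log2 fold change was 1.05, beside −0.01 for all genes. Besides *Perp*, *Pkp1* lost its call in a fit of only the 4 treated libraries (adjusted p = 0.0531 in edgeR), while *Dsg2*, *Dsp* and *Jup* kept theirs in each of the settings tried.

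With TGF-β1 in control cells, 2 of the 9 were called, *Pkp1* and *Pkp2*, both higher, against 9.16% of all genes called (4.69% higher and 4.47% lower). The libraries did not overlap for these 2 with higher levels after treatment, against 27.5% of all genes, and for *Dsp* with lower levels, against 26.3%. The median log2 fold change was −0.04, beside 0.02 for all genes. Without replicate 1 or 2 of untreated control cells the adjusted p was 0.188 or 0.136 for *Pkp1* and 0.210 or 0.175 for *Pkp2*, without replicate 1 or 2 of the untreated libraries labelled knockout it was 0.0615 or 0.0616 for *Pkp1* and 0.0696 or 0.0705 for *Pkp2*, and without replicate 1 of treated control cells it was 0.0703 for *Pkp1*. *Pkp2* also lost its call without replicate 2 of treated control cells (adjusted p = 0.0957) and without replicate 1 or 2 of the treated libraries labelled knockout (0.0542 or 0.0518), *Pkp1* lost its call in limma-voom (0.0628), *Pkp2* lost it in a fit of only the 4 control libraries (0.108), and *Dsp* was called lower without replicate 2 of treated control cells (log2 fold change −0.66, adjusted p = 0.0468, edgeR).

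With TGF-β1 in the libraries labelled knockout, where *Dsg2* had no counts and could not be called, 2 of the other 8 were called, *Jup* and *Pkp1*, both higher, against 6.82% of all genes called (4.25% higher and 2.57% lower). The libraries did not overlap for 4 members with higher levels after treatment (*Jup*, *Pkp1*, *Pkp2*, *Perp*), against 28.4% of all genes, and for none with lower levels, against 28.3%. The median log2 fold change of the 8 was 0.29, beside 0 for all genes. Neither call held without replicate 1 or 2 of the untreated libraries labelled knockout, where the adjusted p in edgeR was 0.0586 or 0.0615 for *Jup* and 0.0834 or 0.0971 for *Pkp1*. The 4 comparisons share groups with one another, the untreated control libraries for example standing in both the untreated genotype comparison and the TGF-β1 comparison of control cells, so their values are given side by side only.

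**Figure D3:**
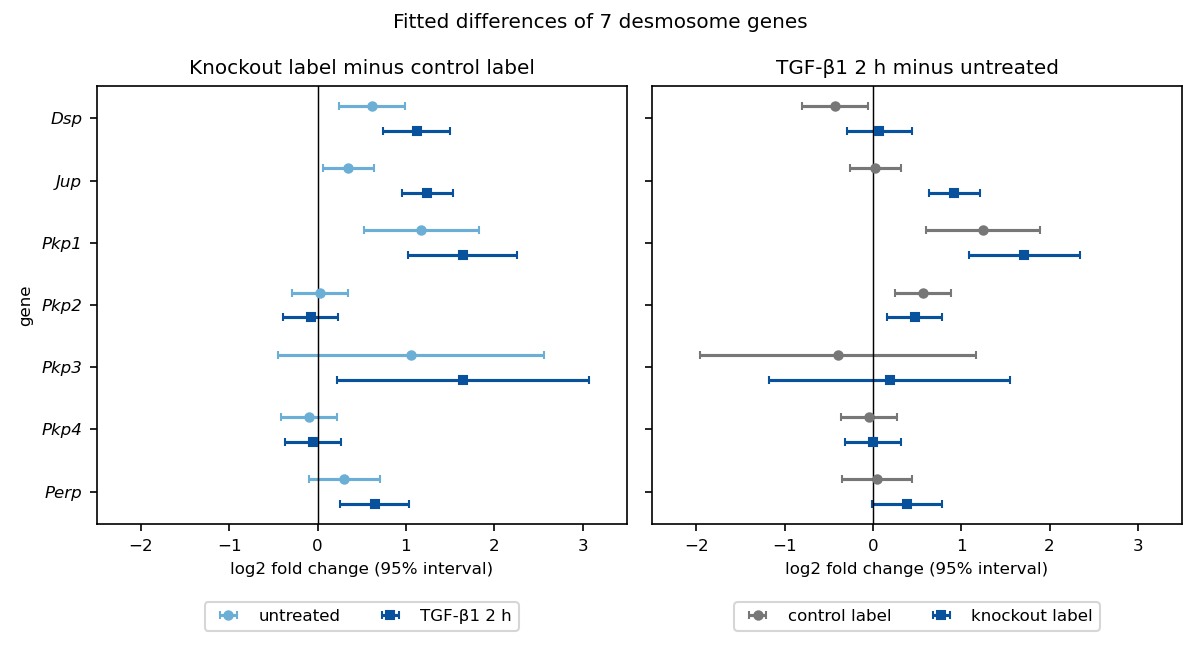
Fitted log2 fold changes (horizontal axis) of 7 desmosome genes (vertical axis) with 95% intervals, on the left between the genotype labels without treatment and with TGF-β1, on the right between TGF-β1 and no treatment under each label. *Jup* with TGF-β1 is at 0.92 under the knockout label and 0.03 in control cells, and the intervals of *Pkp2* and *Pkp4* between genotypes span 0.

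Over both treatments, the mean difference between genotype labels was called for 4 of the 9 members, against 13.9% of all genes tested (7.87% higher and 6.01% lower). The mean for *Dsp* in the libraries labelled knockout was higher by 0.87 on the log2 scale (SE 0.12, 95% interval 0.60 to 1.14, edgeR adjusted p = 0.00176), *Jup* by 0.79 (SE 0.091, 0.59 to 1.00, adjusted p = 0.000827) and *Pkp1* by 1.41 (SE 0.20, 0.96 to 1.86, adjusted p = 0.00212), and *Dsg2* was lower (adjusted p = 0.000171). *Perp* had 0.47 (SE 0.12, adjusted p = 0.0284 in edgeR), under the fold threshold, and *Pkp3* had 1.35 (SE 0.46, adjusted p = 0.0712). All 4 libraries labelled knockout were above all 4 control libraries for *Dsp*, *Jup* and *Perp*, against 8.30% of all genes, and below them for *Dsg2*, against 7.76%, whereas for *Pkp1* the untreated libraries labelled knockout overlapped treated control cells. *Perp* was called without replicate 1 of treated control cells (0.59, adjusted p = 0.00727) or replicate 2 of the treated libraries labelled knockout (0.54, adjusted p = 0.0361), and *Pkp3* without replicate 2 of the untreated libraries labelled knockout (1.72, adjusted p = 0.0371) and with no filter on low counts (1.35, adjusted p = 0.00866), all in edgeR.

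Genes that work next to desmosomes were counted from lists. Of 7 other plakins and linkers of intermediate filaments, 6 were found and tested, and 2 were called higher in the treated libraries labelled knockout than in treated control cells, against 8.47% of all genes. *Ppl* encodes periplakin, the partner of envoplakin, and was at 193 and 204 CPM in untreated control cells, 83.8 and 87.0 CPM in treated control cells, 178 and 178 CPM in untreated libraries labelled knockout, and 131 and 163 CPM in treated ones. Treated control cells were the lowest of the 4 groups by a wide margin. *Ppl* fell by 1.22 on the log2 scale with TGF-β1 in control cells (SE 0.15, edgeR adjusted p = 0.00227) and was higher by 0.78 between the treated genotypes (SE 0.15, adjusted p = 0.0101), while its interaction of 0.94 (SE 0.21) had an adjusted p of 0.430. *Plec*, which encodes plectin, was higher by 1.36 between the treated genotypes (SE 0.29, edgeR adjusted p = 0.0152), and its treated control libraries were at 789 and 464 CPM against 1177 and 2044 CPM. The medians of this list were 0.31 between the treated genotypes and −0.16 with TGF-β1 in control cells, beside −0.01 and 0.02 for all genes tested.

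Of 14 keratin genes, whose filaments desmosomes anchor, 10 were tested. With TGF-β1 in control cells 5 were called higher (*Krt20*, *Krt14*, *Krt16*, *Krt8*, *Krt18*) and *Krt6a* lower, against 4.69% and 4.47% of all genes, and in the libraries labelled knockout 3 were called higher (*Krt20*, *Krt14*, *Krt16*), against 4.25%. The medians were 0.76 and 0.32, beside 0.02 and 0 for all genes. The most abundant per length in every library, *Krt18*, which pairs with *Krt8* in simple epithelia, was at 2485 and 2463 CPM in untreated control cells, 5791 and 3849 CPM in treated control cells, 2837 and 2438 CPM in untreated libraries labelled knockout, and 3011 and 4359 CPM in treated ones. Between the treated genotypes only *Krt6a* was called, 1 of 10 against 8.47% of all genes called higher, at 9.36 and 7.72 CPM for treated control cells against 35.8 and 27.6 CPM (log2 fold change 1.89, SE 0.21, edgeR adjusted p = 0.00129), and between the untreated ones no keratin was called in edgeR, against 1.83% of all genes.

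Of 19 genes known to regulate desmosomes, 12 were tested. With TGF-β1, *Snai1*, *Zeb2* and *Egfr* were called higher under both labels, and *Zeb1* in control cells, against 4.69% of all genes in control cells and 4.25% under the knockout label. *Snai1*, which encodes a repressor of epithelial genes, was at 0.727 ± 0.00609 CPM in untreated control cells, 13.9 ± 1.97 in treated control cells, 1.50 ± 0.0571 in untreated libraries labelled knockout, and 23.9 ± 2.99 in treated ones (SD, n = 2). It was higher by 0.79 on the log2 scale between the treated genotypes (SE 0.23, edgeR adjusted p = 0.0479), the only regulator called there, against 8.47% of all genes called higher. The medians of the list with TGF-β1 were 0.14 in control cells and 0.34 under the knockout label, beside 0.02 and 0 for all genes. *Grhl2*, which encodes a Grainyhead factor of simple epithelia, had at most 6 counts in a library.

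Of 5 adherens junction genes, all tested, *Ctnnd1* was called higher with TGF-β1 under both labels and *Cdh1*, which encodes E-cadherin, higher between the treated genotypes, against 4.69%, 4.25% and 8.47% of all genes. *Cdh1* was at 193 and 266 CPM in untreated control cells, 237 and 242 CPM in treated control cells, 247 and 265 CPM in untreated libraries labelled knockout, and 333 and 400 CPM in treated ones (log2 fold change between the treated genotypes 0.61, SE 0.17, edgeR adjusted p = 0.0433). The list had a median of 0.26 between the treated genotypes, beside −0.01 for all genes. *Arvcf*, which encodes a relative of p120-catenin, was at 10.4 and 9.14 CPM in untreated control cells, 8.24 and 11.0 CPM in treated control cells, 15.0 and 16.6 CPM in untreated libraries labelled knockout, and 15.6 and 13.7 CPM in treated ones, and was called higher over both treatments (log2 fold change 0.65, SE 0.17, edgeR adjusted p = 0.0278), against 7.87% of all genes. *Cdh1* was higher, and the desmosomal cadherin *Dsg2* without counts, in the same treated libraries labelled knockout. *Dsg2* was also without counts in the untreated ones, where *Cdh1* was not called (log2 fold change 0.16, edgeR adjusted p = 0.720). The level per length of *Dsg2* was 0.0242 ± 0.00302 of that of *Cdh1* in untreated control cells and 0.0204 ± 0.00602 in treated control cells (SD, n = 2), with merged exons as the length.

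For 3 members, the 3 tested genes with the most similar pattern over the 8 libraries were sought, by the root mean square difference of log2 CPM centred on each gene's mean. For *Dsg2* these were *Mal2* (0.324), *Fam111a* (0.478) and *Gm10451* (0.484), on chromosomes 15, 19 and 12, each with no counts in the 4 libraries labelled knockout. *Mal2* had 52 and 67 counts in untreated control cells and 118 and 99 in treated control cells. For *Dsp* they were *Ssh1* (0.0965), *BC046404* (0.0968) and *Itpr2* (0.112), and for *Pkp1* they were *Rdh10* (0.248), *Lamb3* (0.264) and *Rab11fip5* (0.266). The levels of *Pkp1* spanned 3.28 on the log2 scale over the 8 libraries, and those of *Dsp* spanned 1.39.

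Promoters are shown for *Dsp* and *Jup*, which were both called higher in the treated libraries labelled knockout, as the 250 bases before the transcription start in RefSeq on GRCm38.p6, a later build than that of the gene positions above. *Dsp* lies at chr13:38151044-38151293 on the plus strand and *Jup* at chr11:100397791-100398040 on the minus strand. Of the members looked up, 3 are in that table, and *Pkp1* and *Perp*, also called between genotypes, are not. The promoters of *Dsg2*, likewise called between genotypes, and of *Dsc2* were not looked up. The letters searched on both strands were CACCTG or CAGGTG (an E-box bound by Snail and Zeb factors, in 17.2% of 32851 promoters of this length), AACCGGTT (Grainyhead, 0.116%), TGANTCA (AP-1, 6.75%) and GTCTAGAC (SMAD, 0.167%), and none of these letters is in either window. After the sequences were seen, GGGCGG (GC box, 32.7%) and CCAAT (33.8%) were added, and capitals mark their matches, those on the opposite strand reading CCGCCC and ATTGG. The *Dsp* window has 4 GC boxes, which begin 137, 102, 80 and 45 bases before the start, and the *Jup* window has 2 GC boxes and 2 CCAAT boxes. *Pkp4*, which was not called, has 2 promoters in the table, the first with 5 GC boxes and 3 CCAAT boxes and the other with 1 E-box, so the boxes were not limited to called members. The share of G and C is 72.4% for *Dsp*, 62.0% for *Jup* and 68.4% and 70.0% for the promoters of *Pkp4*, beside a median of 52.4% over all promoters in the table.
Dsp: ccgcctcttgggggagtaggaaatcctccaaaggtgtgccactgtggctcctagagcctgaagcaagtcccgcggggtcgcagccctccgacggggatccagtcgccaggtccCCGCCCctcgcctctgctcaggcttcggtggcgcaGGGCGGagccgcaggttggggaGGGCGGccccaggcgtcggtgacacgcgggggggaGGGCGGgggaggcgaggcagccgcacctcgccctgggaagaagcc
Jup: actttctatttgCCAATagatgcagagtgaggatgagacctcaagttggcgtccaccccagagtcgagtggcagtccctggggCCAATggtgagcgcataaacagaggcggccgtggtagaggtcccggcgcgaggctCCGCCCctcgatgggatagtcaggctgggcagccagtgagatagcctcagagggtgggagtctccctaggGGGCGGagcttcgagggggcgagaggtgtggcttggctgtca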

How the data were processed

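The authors deposited raw counts, whole numbers of reads per gene without normalization, for 8 libraries. The study's methods name alignment with subjunc and removal of duplicates, whereas the submitters' processing notes name HISAT2 and limma, and the sources also differ on the library kit, poly(A)-selected or total RNA. The counting tool and its use of strand were not given in the sources used here, so genes overlapping on opposite strands are uncertain. Gene identifiers and their order were identical to GENCODE vM1 (NCBIM37), which gave symbols, positions and exon lengths. The submitters' processing notes name another genome build, mm10. Labels give the groups.

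From these counts, CPM with TMM factors were computed, and genes kept by filterByExpr were fitted with glmQLFit of edgeR 4.0.16 in R 4.3.3 over the 4 groups, without a block (common biological coefficient of variation 0.180, 4 residual degrees of freedom). Each contrast used glmQLFTest, with Benjamini-Hochberg adjustment over all 13028 genes. Calls needed a log2 fold change beyond 0.5 in size and an adjusted p under 0.05, the interaction only the latter. The SE is the absolute log2 fold change divided by the square root of F. Likeness of patterns used log2 CPM with a prior count of 2. All 10 members are named, with a selection of the called genes of the other lists. The members and lists were chosen with earlier results of these data known.

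Alternatives were DESeq2 1.42.0, limma-voom (limma 3.58.1), RLE factors, the replicate number as a block, a filter at a mean of 10 counts or none, only the libraries compared, no fold threshold, each library left out in turn, and the longest transcript as length. The pipeline was also run on simulated counts with known changes.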

Additional observations from a re-analysis of the deposited data

How the results depend on the processing

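The calls of *Dsg2*, *Dsp* and *Jup* between the treated genotypes and over both treatments, that of *Pkp1* over both treatments and that of *Dsg2* between the untreated genotypes held in all settings tried for them. The number of desmosome genes called between the untreated genotypes, 1 (1.83% of all genes), became 3 in DESeq2 (3.29%), 3 with no filter on low counts (3.69%), 3 in a fit of only the libraries compared (6.48%) and 1 to 2 with a library left out (0.305% to 2.93%). Between the treated genotypes, 5 (15.0%) became 3 in a fit of only the libraries compared (3.21%), 6 with no filter on low counts (13.8%) and 4 to 5 with a library left out (3.57% to 20.7%). With TGF-β1 in control cells, 2 (9.16%) became 1 in limma-voom (8.32%), 1 in a fit of only the libraries compared (3.74%) and 0 to 2 with a library left out (1.05% to 11.1%). With TGF-β1 in the libraries labelled knockout, 2 (6.82%) became 0 to 2 with a library left out (0.995% to 10.4%). For the interaction, 0 became 1, *Jup*, in DESeq2 (0.230%) and with no filter on low counts (1.03%). Over both treatments, 4 (13.9%) became 5 with no filter on low counts (11.5%), 5 with no fold threshold (18.2%) and 4 to 5 with a library left out (7.73% to 20.0%). The causes were not tested. A library left alone in its group was assumed to vary like the other groups.

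Replicate numbers did not pair the libraries over all groups. Deviations of same-numbered libraries correlated across genes at between −0.51 (treated control cells and treated libraries labelled knockout) and 0.32 (untreated and treated control cells). Whether libraries with opposite numbers are paired between the treated groups was not tested. With the replicate number as a block, 1 member was called with TGF-β1 in control cells (6.38% of all genes), in place of 2 (*Pkp2* at adjusted p = 0.0573 in edgeR), and counts of members in the other comparisons were as without it, while the share of all genes fell to 1.15% between the untreated genotypes, 11.4% between the treated ones, 5.19% with TGF-β1 in the libraries labelled knockout and 12.6% over both treatments.

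Of 52 log2 fold changes of members, 21 changed sign in some setting, and none of these was called. Between the untreated genotypes, leaving out each library gave −0.069 to 0.10 for *Pkp2* (−0.013 with no filter), −0.070 to 1.78 for *Pkp3* and −5.40 to 1.40 for *Evpl* (−0.22 in limma-voom), whose fitted values rest on libraries at 0. Between the treated genotypes it gave −0.14 to 0.019 for *Pkp2* and −0.14 to 0.050 for *Pkp4*. With TGF-β1 in control cells it gave −0.51 to 0.11 for *Dsg2*, −0.027 to 0.083 for *Jup*, −1.07 to 0.072 for *Pkp3*, −0.10 to 0.025 for *Pkp4*, −0.20 to 0.24 for *Perp* and −1.48 to 0.20 for *Evpl*. With TGF-β1 in the libraries labelled knockout it gave −0.53 to 1.33 for *Pkp3*, −0.069 to 0.12 for *Pkp4* and −0.77 to 6.02 for *Evpl*. There *Pkp4* was also at −0.0058 with a mean of at least 10 counts, −0.0011 with the replicate block and −0.00025 in a fit of only the libraries compared, and *Evpl* at −0.020 in the latter. For the interaction it gave −0.033 to 0.89 for *Pkp1*, −0.17 to 0.019 for *Pkp2*, −0.13 to 1.72 for *Pkp3*, −0.021 to 0.17 for *Pkp4* and −0.34 to 6.45 for *Evpl*. Over both treatments it gave −0.072 to 0.014 for *Pkp2* and −2.17 to 1.35 for *Evpl*.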
